A study of Mus musculus with 2 samples.

Results

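The ligands and receptors of the epidermal growth factor (EGF) family were followed in mammary glands of mice labelled as null for Gata3, a transcription factor that luminal epithelial cells need, after induced deletion. The family was taken as 10 genes, 6 ligands (Areg, Egf, Tgfa, Hbegf, Btc and Nrg1) and 4 receptors (Egfr, Erbb2, Erbb3 and Erbb4), and its members are all array features that the platform annotation names for one of them. This gave 9 of 38976 features and 8 of the 10 genes: 1 feature each for Egf, Tgfa, Hbegf, Btc, Nrg1, Erbb2 and Erbb3, and 2 for Egfr. Areg and Erbb4 had no feature under their symbol, an older symbol, their Entrez ID or a RefSeq transcript, so amphiregulin, the main EGF family ligand of ductal growth, and the fourth receptor were not analysed here. Another 16003 features carry no gene symbol and were not used for single genes.

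Each of the 2 two-colour arrays compared total mammary gland RNA of adult null mice, GATA-3flox/flox; WAP-rtTA-Cre, in Cy3 with that of het mice, GATA-3flox/+; WAP-rtTA-Cre, in Cy5. With 0 dye-swapped arrays, a probe's preference for one dye and a difference between the genotypes cannot be told apart. Both genotypes carried WAP-rtTA-Cre, in which the promoter of the milk gene Wap drives a doxycycline-dependent activator in mammary epithelial cells, and both received doxycycline for 5 days. Other cells of the gland keep their floxed alleles, and the het mice also lose 1 Gata3 allele in the cells where Cre is active. The labels do not say how many animals were used, whether RNA was pooled or whether the arrays held separate animals. SDs below therefore measure the spread between 2 arrays, which may be technical. The p-values and intervals of limma rest on that spread combined with a spread pooled over all features or genes, which weighs more.

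Values are log ratios of the channels as deposited, taken as log2 from their range because no source used here names the base. Neither labels nor files name the numerator, so it is not settled which channel, and with it which genotype, a positive ratio favours. A ratio away from 0 may also hold the probe's preference for one dye, so it need not mean more RNA in either genotype. The feature for Gata3, the deleted gene, read 1.595 on array 1 but 0.205 on array 2 (mean 0.90 ± 0.98, SD, n = 2). It did not pass over features (limma adjusted p = 0.188), but 0 of all features did, so that test cannot decide whether its ratio differs from 0. Its limma interval, 0.08 to 1.72, lay above 0 (limma unadjusted p = 0.0361), where 22% of all features had an unadjusted p under 0.05. Over genes it did not pass (limma adjusted p = 0.156), where 8.26% of all genes did. With the numerator not named, the Gata3 feature neither shows nor excludes the loss that the labels state. Whether that feature lies in the deleted part is not given, so it does not settle the direction. A ratio holds no level, so neither the tissue's own markers nor the abundance of a family member could be checked.

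EGF family ligands are made as membrane-bound precursors that proteases such as Adam17 cut free. Egf, Tgfa and amphiregulin bind Egfr, and Btc (betacellulin) and Hbegf bind both Egfr and Erbb4. The neuregulin Nrg1 binds Erbb3 and Erbb4. Bound receptors pair with each other, Erbb2 being the partner without a known ligand of its own and Erbb3 a receptor with little kinase activity, and signal through adaptors to the MAPK and PI3K cascades. In the mammary gland the family drives ductal outgrowth at puberty and alveolar growth and milk production in pregnancy, with Egfr acting largely in the stroma during ductal growth.

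Because Gata3 binds DNA at the letters GATA, the 250 bases before a transcription start of the family's genes were searched for them in RefSeq sequence (GRCm38.p6). Windows were found for 7 of the 10 genes, and the letters, on either strand, were in 1 of these, that of Egf, and in none of those of Areg, Tgfa, Btc, Egfr, Erbb2 and Erbb4. Among all 32851 windows of this length, 53.6% held GATA on either strand, and 26.5% held the longer form, GATA with A or T before it and A or G after it. The table's windows for Tgfa and Erbb4, and a second one for Egf that held no match, do not adjoin the gene's outermost end in the RefSeq gene table. The window of Btc is shown as that of the member with the largest ratio, and that of Egf as the one with a match. Btc lies on the minus strand (chr5:91402995-91403244), as does Egf (chr3:129755323-129755572), and both run 5′ to 3′ towards the start. Capitals mark GATA read on the other strand, which here also completes the longer form.
Btc: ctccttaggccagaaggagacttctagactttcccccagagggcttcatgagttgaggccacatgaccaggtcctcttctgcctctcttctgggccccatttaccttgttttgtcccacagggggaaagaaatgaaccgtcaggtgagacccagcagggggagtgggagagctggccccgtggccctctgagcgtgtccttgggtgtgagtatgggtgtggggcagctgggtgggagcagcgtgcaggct
Egf: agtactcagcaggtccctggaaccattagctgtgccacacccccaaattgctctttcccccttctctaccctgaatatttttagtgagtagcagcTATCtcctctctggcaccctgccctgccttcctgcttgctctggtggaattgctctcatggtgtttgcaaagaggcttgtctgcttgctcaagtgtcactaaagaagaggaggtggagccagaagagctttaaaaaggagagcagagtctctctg
A match in these letters is a description and not a binding site, and a window without one says nothing about Gata3 at that gene.

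Betacellulin was the member with the largest ratio. Btc read 0.85 on array 1 and 0.84 on array 2, averaging 0.84 ± 0.0071 (SD, n = 2) or a 1.79-fold difference between the channels. Both arrays were high and nearly equal. Over all features Btc did not pass (limma adjusted p = 0.0613, 95% interval of the mean 0.37 to 1.32), and 0 of the 9 family features did, where 0% of all features passed. At limma's unadjusted p under 0.05, 1 of the 9, Btc, was past the threshold, against 22% of all features, 15.5% positive and 6.47% negative. When the features of a gene were averaged and genes were tested, Btc passed (limma adjusted p = 0.0392, interval 0.43 to 1.26), the only 1 of 8 family genes to do so. At the gene level 8.26% of all genes passed, 7.28% with a positive ratio. Its value is the same in both fits, which differ in the number of tests and in the pooled spread. In whole-gland RNA, fewer cells of a type and less RNA per cell cannot be told apart.

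Several measurements bear on how far the Btc feature stands out. Of all features, 8.75% had a mean at least as high, and 4.65% had both ratios at least as high as its smaller one. It was at percentile 88.4 of all features on array 1 and 93.7 on array 2. Of all features, 9.9% were at least 1.5-fold positive on both arrays, against 1.95% negative, and Btc was the only family feature past that size in either direction. At 2-fold on both arrays the family's count was 0, against 2.14% of all features positive and 0.254% negative, and at 3-fold it was 0, against 0.0103% and 0.00513%. Olfactory receptors, which the gland is not known to use, had higher ratios than most genes: 33.8% of their 865 features were at least 1.5-fold positive on both arrays, and 28.7% of their 844 genes passed the gene-level test with a positive ratio. The Btc mean stood at percentile 69.8 of the olfactory receptor features. The part that a shift shared with such genes has in the Btc ratio was not tested. Spot intensities were not used here.

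The call of Btc moved with the processing. Over features, Btc passed with arrays scaled to equal median absolute deviation, after quantile normalization, at an adjusted p of 0.1 and without features whose arrays differed by more than 1. In these settings 12.9%, 13.1%, 12.6% and 20.5% of all features passed. The last of them removes features by the same spread that the test uses, which lowers its p-values by construction. Btc did not pass over features with array medians subtracted, local medians subtracted or a robust prior, where 6.99%, 4.88% and 0% passed. Over genes, Btc passed with array medians subtracted, equal median absolute deviation, quantile normalization, a robust prior and without features that differed, as did 11.9%, 13.6%, 15.9%, 7.86% and 19.5% of all genes. With local medians subtracted it did not (limma adjusted p = 0.057), where 7.67% of genes did.

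How well 1 feature stands for its gene could be measured on other genes. Over the 3598 genes with exactly 2 features, Pearson's r between the pair's mean ratios was 0.078, Spearman's rho was 0.055, and 47.9% of pairs had means of opposite sign. These are correlations across genes, which are not independent, and the pair shares both arrays. Of the 651 features in such pairs that were at least 1.5-fold positive on both arrays, as Btc is, 51.2% had a partner with a positive mean, where 45.4% of all feature means were positive. Btc has no second feature to compare, nor have the 6 other family genes with 1 feature. Whether the annotation gives each feature its right gene could not be checked from the files, so a value printed under a gene's name is that of the feature annotated to it.

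**Figure D1:**
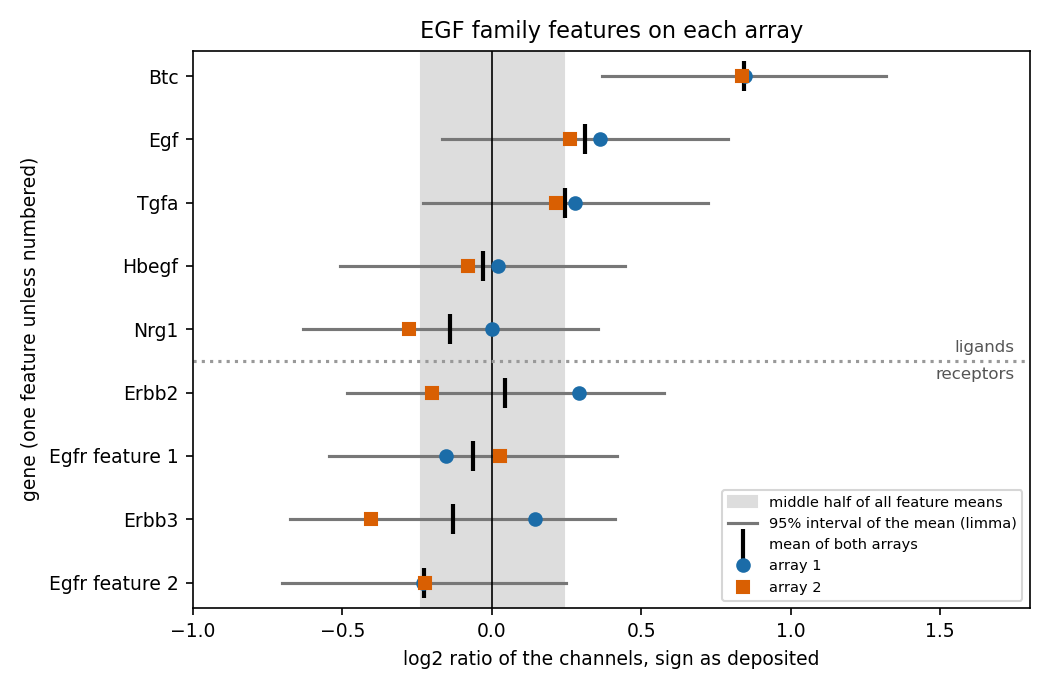
Log2 ratio of each EGF family feature on array 1 (circles) and array 2 (squares), with the mean of both (ticks) and its 95% interval from limma (lines); ligands are above the dotted line and receptors below it, and the grey band runs from the lower to the upper quartile of all feature means. The interval of Btc, 0.37 to 1.32, is the only 1 that lies clear of 0.

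The other ligands of Egfr in the family list had smaller ratios. Egf, the family's founding ligand, read 0.36 on array 1 and 0.26 on array 2, averaging 0.31 ± 0.070 (SD, n = 2). Tgfa, transforming growth factor alpha, had 0.28 and 0.22 on arrays 1 and 2, averaging 0.25 ± 0.043 (SD, n = 2). Both were positive on both arrays, as were 30.7% of all features (34.8% were negative on both), and neither passed over features (limma adjusted p = 0.440 for Egf and 0.556 for Tgfa). Their 95% intervals, -0.17 to 0.79 and -0.23 to 0.72, hold 0 and also differences of more than 1.5-fold. They stood at percentiles 75.64 and 75.04 for Egf, and 71.4 and 72.5 for Tgfa, on arrays 1 and 2.

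Hbegf, a heparin-binding ligand, was near 0 on both arrays, with 0.020 on array 1 and -0.081 on array 2 (mean -0.03 ± 0.071, SD, n = 2; limma adjusted p = 0.961). Its interval reached from -0.51 to 0.45. Nrg1, a neuregulin and ligand of Erbb3 and Erbb4, had -0.001 on array 1 and -0.28 on array 2 (mean -0.14 ± 0.20, SD, n = 2; limma adjusted p = 0.783). The Nrg1 feature was thus low on array 2 alone. Over the 100 features on either side in the order of the feature numbers, the local median was -0.14 for array 1 and -0.17 for array 2, so its surroundings were lower than the whole array, whose medians were -0.004 and -0.031.

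Among the receptors, Egfr was measured by 2 features, both annotated to a RefSeq transcript of the gene. The first had -0.16 on array 1 and 0.029 on array 2, and the second -0.23 and -0.22. The second was negative on both arrays and the first was not. Averaged, Egfr stood at -0.14 ± 0.068 (SD, n = 2; gene-level limma adjusted p = 0.690, 95% interval -0.56 to 0.27). The means of the Egfr features differed by 0.16, against a median difference of 0.37 over all genes with 2 features.

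Erbb2, the shared partner receptor, had 0.29 on array 1 and -0.20 on array 2, and Erbb3, a receptor of Nrg1, 0.14 and -0.40. Both receptors were above 0 on array 1 and below it on array 2. Their means were 0.045 ± 0.35 and -0.13 ± 0.39 (SD, n = 2 each), the largest spreads in the family, and neither passed over features (limma adjusted p = 0.947 for Erbb2 and 0.820 for Erbb3). For Erbb3 the array 2 value lay at percentile 11.3 of all features and the array 1 value at 62.7. No receptor was positive on both arrays, and Egfr, by its gene average, was the only receptor negative on both. By sign, 3 of the 8 family genes were positive on both arrays, 2 negative on both and 3 neither, against 33.7%, 34.1% and 32.1% of all genes.

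**Figure D2:**
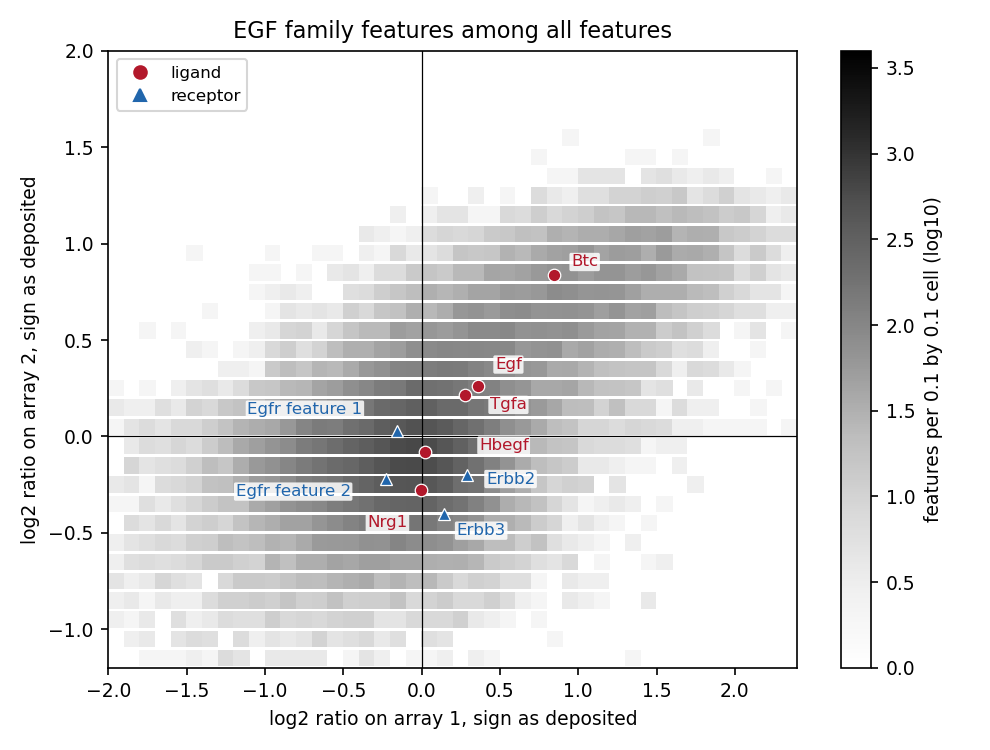
Log2 ratios on array 1 (horizontal axis) and array 2 (vertical axis) of the EGF family ligands (circles) and receptors (triangles), over the number of all features in each cell of the plane (grey, log10 scale); the axes show the central part of the range. Btc, at 0.85 and 0.84, lies in the upper right, while the other 8 family features lie between -0.40 and 0.36 on both axes.

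The order of the family genes by mean was Btc, Egf, Tgfa, Erbb2, Hbegf, Erbb3, Nrg1 and Egfr. Btc was above every other measured member on both arrays, by 0.49 to 1.04 on array 1 and by 0.57 to 1.24 on array 2. Of the 7 neighbouring pairs in this order, 2 kept one sign on both arrays. Btc exceeded Egf by 0.53 ± 0.063 (SD, n = 2 arrays), and Egf exceeded Tgfa by 0.066 ± 0.027 (SD, n = 2 arrays). The other 5 pairs, from Tgfa and Erbb2 down to Nrg1 and Egfr, changed sign between arrays and did not differ beyond their spread. Differences between features were not tested. They compare features of different probes, whose agreement within genes is given above.

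Of the 5 ErbB ligands outside the family list, 4 were measured. Ereg (epiregulin), another Egfr and Erbb4 ligand, had 2 features that were both high, at 0.90 and 0.81 and at 1.35 and 0.75 on arrays 1 and 2. Its gene average was 0.95 ± 0.24 (SD, n = 2), a 1.94-fold difference, and it passed the gene-level test (limma adjusted p = 0.0369). Neither Ereg feature passed over all features (limma adjusted p = 0.0604 and 0.0553). Epgn (epigen), an Egfr ligand, had -0.037 and 0.37, of opposite sign on the arrays.

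The neuregulins of that list each had 2 features that disagreed. For Nrg3, one feature had -0.12 and -0.26 and the other 0.75 and 0.69 on arrays 1 and 2. Nrg4 showed the same split, with -0.25 on both arrays for one feature and 0.99 and 0.71 for the other. Their gene averages, 0.26 for Nrg3 and 0.30 for Nrg4, describe neither feature, and neither gene passed (limma adjusted p = 0.432 and 0.367). Counting gene averages, 6 of all 9 measured ErbB ligands were positive on both arrays and 1 negative on both, with 2 past the gene-level test, both positive. Of all genes, 33.7% were positive on both arrays, 34.1% negative on both and 7.28% past the test with a positive ratio. Among olfactory receptor genes 64.7% were positive on both arrays and 28.7% passed with a positive ratio. Of the 6 positive ligands, Nrg3 and Nrg4 count as such by averages of features of opposite sign. The median of the 9 ligands was 0.31 on array 1 and 0.23 on array 2, against 0.013 and -0.014 over all genes. Nrg2 had no feature.

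**Figure D3:**
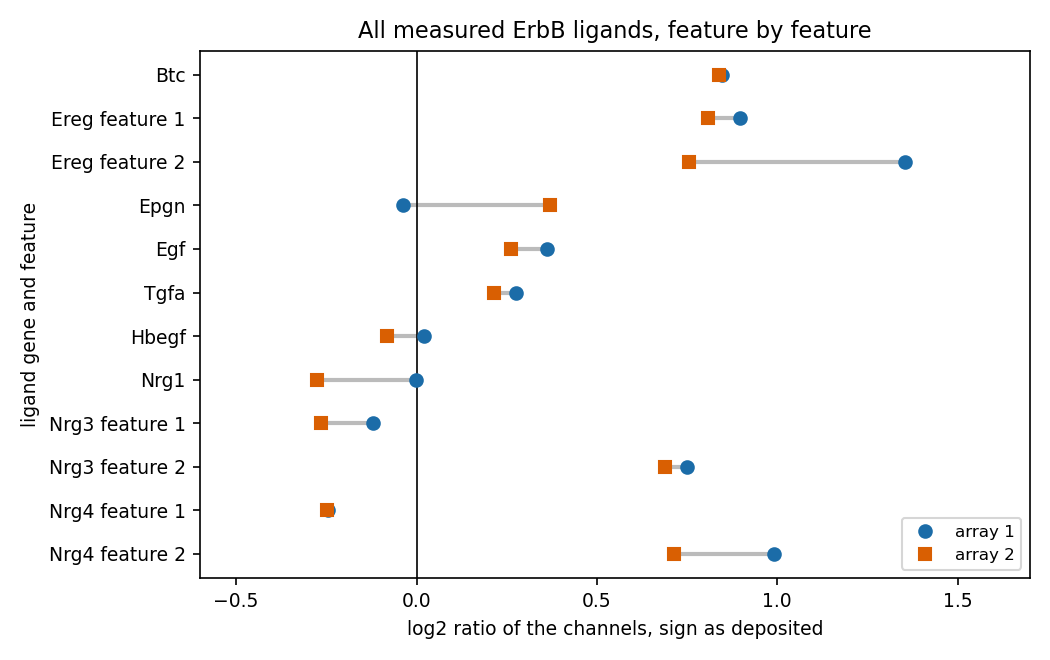
Log2 ratio on array 1 (circles) and array 2 (squares) of every feature of the 9 measured ErbB ligand genes, with the arrays joined by a line. Both Ereg features lie beside Btc, from 0.755 to 1.354, while the features of Nrg3 and of Nrg4 lie on opposite sides of 0.

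Epgn, Ereg, Areg and Btc are neighbours on mouse chromosome 5 in the RefSeq table, so the genes around them were read too. Before Epgn, the chemokine genes Pf4, Cxcl15, Cxcl1 and Cxcl2 had means of -0.045, -0.11, -0.047 and -0.26, while Cxcl3 had 0.81, from 1.08 on array 1 and 0.55 on array 2. After Btc, Parm1, Rchy1 and G3bp2 had means of 0.018, 0.19 and 0.055, while Cdkl2, averaged over 4 features, had 0.67, from 0.68 and 0.66. Of these 9 neighbours 0 passed the gene-level test, where 8.26% of all genes did, and Cxcl3 and Cdkl2 came nearest (limma adjusted p = 0.0613 and 0.0679). Cxcl3 before the ligands and Cdkl2 after them thus had means well above those of the other measured genes on their side. Mthfd2l, Odaph and Gm46915 had no feature, so the genes directly beside Cdkl2 were not measured. Separate values of the 4 Cdkl2 features are not given here.

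Proteins that release ligands or restrain the receptors were described by lists of textbook pathway genes. For ligand shedding and trafficking, 7 of 7 genes were measured, 1 was positive and 3 negative on both arrays, and 0 passed at the gene level, against 33.7%, 34.1% and 8.26% of all genes. Adam17, a sheddase of several of the ligands, had 0.004 on array 1 and 0.27 on array 2. Rhbdf1 and Rhbdf2, which carry Adam17 to the cell surface, had means of -0.44 ± 0.098 and -0.31 ± 0.40 (SD, n = 2 each). Timp3, an inhibitor of Adam17, had a mean of -0.16, with features of opposite sign (0.09 and -0.41).

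Genes that restrain or degrade the receptors had a median of -0.31 on array 1 and -0.003 on array 2, with 2 of 17 positive and 7 negative on both arrays and 0 past the gene-level test, against 33.7%, 34.1% and 8.26% of all genes. Cblc and Cbl, ubiquitin ligases that mark activated Egfr for degradation, had means of -0.68 ± 0.16 and -0.49 ± 0.063 (SD, n = 2 each; limma adjusted p = 0.0699 and 0.149). Spry1, a feedback inhibitor, had -0.28, with both of its features negative. Ptpn1, a phosphatase acting on Egfr, had -0.27 from features at -0.044 and -0.50. Errfi1, which blocks the Egfr kinase, had a gene average of 0.54, made of features at 0.06 and 1.02.

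In the adaptor, MAPK and PI3K list, 23 of 32 genes were measured, 9 were positive and 9 negative on both arrays, and 0 passed, against 33.7%, 34.1% and 8.26% of all genes. The adaptor Grb2, which binds activated receptors, had -0.91 on array 1 and -0.38 on array 2, and Sos1, the exchange factor it brings to Ras, had -1.15 and -0.50. Both were negative on both arrays, and more so on array 1 (limma adjusted p = 0.112 and 0.0693). On the positive side, Nras averaged 0.58 from features at 1.24 and -0.075, the kinase gene Map2k1 had a mean of 0.37 ± 0.18 (SD, n = 2), and Pik3r3, a PI3K regulatory subunit, had 0.27 from features at -0.028 and 0.57.

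Early response genes and transcriptional targets of the pathway had both signs, with 7 of 23 positive, 9 negative on both arrays and 1 past the gene-level test, against 33.7%, 34.1% and 8.26% of all genes. Fos, a subunit of AP-1 induced by growth factors, had 1.39 on array 1 and 0.94 on array 2 (mean 1.16 ± 0.32, SD, n = 2; limma adjusted p = 0.0336). Fosb, a relative of Fos, had 0.66 and the ETS factor gene Etv4 0.54. Klf4 averaged 0.53, but its features stood at 1.22 and -0.16. Plaur, the urokinase receptor gene, had -0.36. None of these 4 passed.

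Amphiregulin is a target of the estrogen receptor in hormone-sensing luminal cells, so the steroid receptor and hormone-sensing list was set beside the family. Of its 11 genes 8 were measured, with 1 positive and 3 negative on both arrays and 0 past the test, against 33.7%, 34.1% and 8.26% of all genes. Esr1, the estrogen receptor gene, averaged 0.61 from features at -0.19 and 1.405. Wnt4, a signal sent by progesterone-responsive cells, the serotonin synthesis gene Tph1 and the coactivator gene Cited1 were negative on both arrays, further on array 1. Wnt4 had a mean of -0.88 ± 0.70, Tph1 -0.61 ± 0.60 and Cited1 -0.38 ± 0.27 (SD, n = 2 each).

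**Figure D4:**
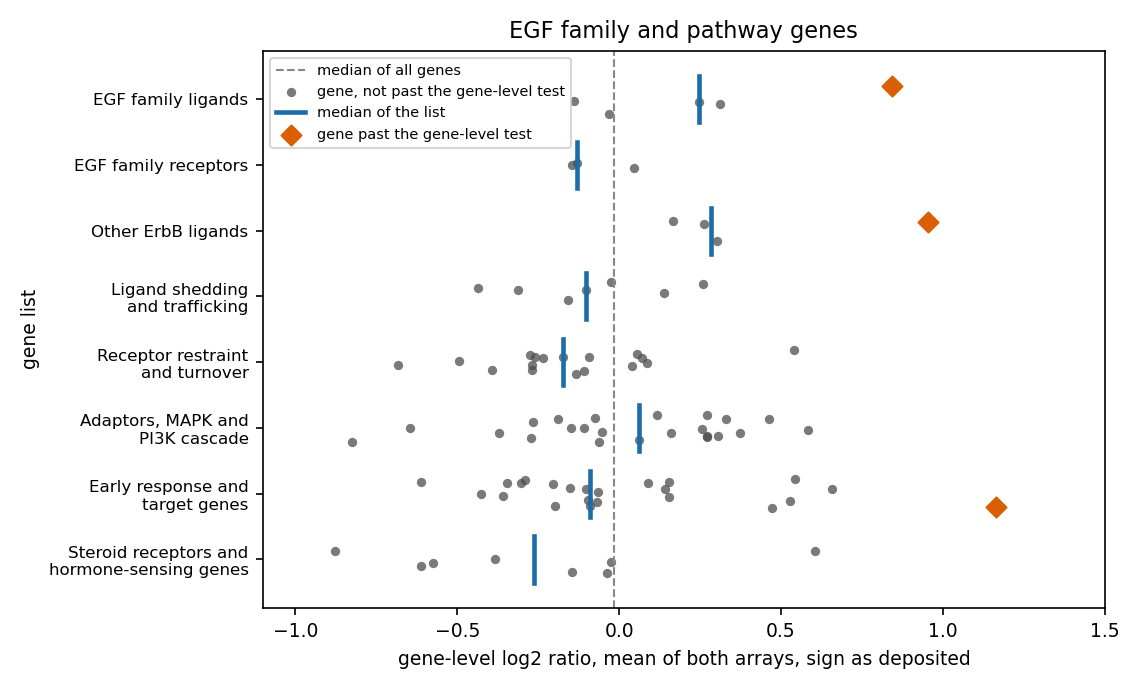
Gene-level log2 ratio, as the mean of both arrays, of each measured gene of the EGF family and of 6 pathway lists; bars are list medians, diamonds are genes past the gene-level limma test and the dashed line is the median of all genes. Btc, Ereg and Fos are the 3 diamonds, at 0.84, 0.95 and 1.16.

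Marker genes of cell types in the gland were set beside the family. The median luminal marker stood at -0.27 on array 1 and -0.01 on array 2 over 8 genes, basal markers -0.03 and -0.13 over 8, and white adipocyte markers -0.81 and -0.14 over 7. Fibroblast markers had -1.22 and -0.05 over 6 genes, and macrophage and lymphocyte markers -0.32 and -0.18, and -0.23 and -0.17, over 4 and 5 genes. Over 3 Schwann cell and 5 skeletal muscle markers the medians were -0.003 and -0.24, and 0.02 and -0.20. The fibroblast and adipocyte medians were low on array 1 in particular, but their genes were not of one sign there: Lep, Retn and Lipe stood at 0.495, 0.536 and 0.200 among the adipocyte markers, and Fbln1 at 0.36 among the fibroblast markers. By means of both arrays, the median adipocyte marker stood at -0.02 and the median fibroblast marker at -0.64. Of the 6 fibroblast markers 3 were negative on both arrays and 3 were of opposite sign. Past the gene-level test were the luminal marker Cd24a (1.07) and the lymphocyte marker Cd3g (0.89), as were 7.28% of all genes with a positive ratio, and the basal marker Krt5 (-0.97), as were 0.983% with a negative one. Cd24a went against the 5 of 8 luminal markers that were negative on both arrays. Of the 5 lymphocyte markers Cd3g was the only 1 positive on both arrays, and 2, among them Cd3e (mean -0.35), were negative on both. Of the 8 basal markers 4, with Krt5, were negative on both arrays, and 2, among them Krt14 (mean 0.805), were positive on both. The part of cell makeup in the family's ratios was not tested.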

How the data were processed

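The authors deposited log2 ratios of the channels of each array, from spotted oligonucleotide arrays, lowess-normalized by print tip with Acuity 4.0, per the labels and the series' design text. The base was read from the range of the values. Sources used here do not name the base, numerator, centring, background correction or spot filters. Both arrays held a value for each of 38976 features. One gene symbol was annotated to 22973 of them, several to 0 and none to 16003. Entrez IDs tied the 22973 to 15056 genes of the RefSeq table (GRCm38.p6). No coordinates of features are given.

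Ratios were tested against 0 with limma 3.58.1 (R 4.3.3), in both directions, and p-values were adjusted by Benjamini-Hochberg across every feature, or across all genes after averaging their features, at a threshold of 0.05. One residual degree of freedom remained, and the prior added 5.32 for features and 5.41 for genes. The number of arrays limits the precision: 95% intervals of family features reached 0.48 to 0.54 to either side. Figures used matplotlib 3.10.9. Lists were described by counts and medians, without a set test.

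The members, lists and rules were chosen with earlier results of these data known. All family features were named, with, from each pathway list, up to 5 genes of one sign on both arrays with the largest smaller ratio, and genes past the gene-level test. Epgn, Nrg2, olfactory receptors, cell type markers and the neighbours of Btc were added once values were known. Alternatives were median subtraction, equal median absolute deviation, quantile normalization, a robust prior, a threshold of 0.1, removal of features with arrays more than 1 apart, genes for features, each array alone and other fold minimums. Subtracting a local median (each feature and 100 on either side), and features for genes in the family's ratios and the list medians, were added after seeing the data.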

Additional observations from a re-analysis of the deposited data

How the results depend on the processing

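Both genotypes lie on each array, so the test of the ratio against 0 already pairs them within an array, and no further pairing could be added. Over all features, limma called 0, and with a robust prior this stayed 0. It became 2724 with medians subtracted, 5014 with equal median absolute deviation, 5121 after quantile normalization and 4929 at an adjusted p of 0.1. It became 7452 without features whose arrays differed by more than 1, 1902 with the local median subtracted and 1244 for genes. The lowest limma adjusted p over features, 0.0512, lay just above the threshold. The family's count of 0 became 1, Btc, with equal median absolute deviation, after quantile normalization, at an adjusted p of 0.1, without features that differed between arrays and for genes. On single arrays, 1407 to 5191 of all features were 2-fold or more from 0. At a fold minimum of 2 or 3 the family's count was 0, against 1 at 1.5. The gene-level ratio of Btc stayed positive in all 7 alternatives with both arrays, from 0.73 to 0.89 with limma adjusted p from 0.00122 to 0.0613. The lowest came from removing features whose arrays differed by more than 1. That filter selects on the same spread that the test uses and so lowers its p-values by construction. Btc lost its call with the local median subtracted (0.73, limma adjusted p = 0.057) and in the test over features (0.84, limma adjusted p = 0.0613). The Nrg1 ratio turned to 0.016 with the local median subtracted. On single arrays Erbb2 ranged from -0.20 to 0.29, Hbegf from -0.081 to 0.020 and Erbb3 from -0.40 to 0.14. Of list medians, that of adaptors and kinases (0.06) moved to -0.053 without features that differed, to 0.12 with the local median subtracted and to -0.04 over features, and that of other ErbB ligands (0.28) to 0.72 over features. On single arrays the medians ranged from -0.041 to 0.008 for adaptors and kinases, -0.081 to 0.14 for the family, 0.30 to 0.34 for other ligands and -0.091 to 0.0063 for early response genes. The causes were not tested, and signal over background could not be judged.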
